A study of Mus musculus with 6 samples.

Results

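The interferon response and antigen presentation genes are 41 mouse genes listed by symbol: 18 antiviral effectors, 6 sensors and their regulators, 4 transcription factors, 5 GTPases and 8 genes of MHC class I antigen presentation. Of these, 37 of 19856 measured genes could be read from a probe set that carries that gene alone, and the brightest such probe set was used. Isg15, Gbp2 and Igtp had only probe sets shared with other genes, and Ifi44 was not analysed here. The arrays compared a tetraploid line of mouse embryonic fibroblasts, labelled as having abnormal DNA contents and called transformed in the series title, with a diploid line whose label is normal control. Such fibroblasts are connective tissue cells cultured from embryos. Each line gave 3 total RNA samples from cells grown in serum-containing medium to near confluence, and each sample was read on 1 Affymetrix whole-transcript array. No interferon or other agent is named in the labels of either line. With 1 line per ploidy, the effects of ploidy, of transformation and of the line itself cannot be told apart. Nothing in the labels states that samples came from separate cultures, so every p-value measures only the spread between these samples, which may be technical.

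Cells that detect foreign nucleic acid secrete type I interferons. These bind a receptor whose Janus kinases phosphorylate STAT proteins, and the STAT complex with IRF9 enters the nucleus and switches on the interferon-stimulated genes. Type II interferon, made mainly by lymphocytes, acts through another receptor and a STAT dimer, and it raises IRF1, the immunity-related GTPases and the genes of antigen presentation. In antigen presentation the immunoproteasome cuts proteins into peptides, the TAP transporter carries the peptides into the endoplasmic reticulum, and MHC class I molecules with beta-2-microglobulin show them at the cell surface.

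The letters of DNA motifs linked to these signals were searched for in the promoters of the listed genes, and not every gene held one. RefSeq promoter windows (assembly GRCm38.p6, from 250 bases before to 50 after each start) were given for 33 of the 41 genes. The stretches shown were chosen to hold the motifs of called genes and of genes that differed widely between arrays, with Ifit3 as the partner of Ifit1. All lie before the start, and capitals mark the motif. The motif GAAANNGAAA, searched on both strands and reading TTTCNNTTTC on the other, is the core of the interferon-stimulated response element.
Irgm1, minus strand, chr11:48871421-48871486: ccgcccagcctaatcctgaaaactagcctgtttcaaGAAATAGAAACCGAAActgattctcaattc
Ifit1, plus strand, chr19:34640749-34640849: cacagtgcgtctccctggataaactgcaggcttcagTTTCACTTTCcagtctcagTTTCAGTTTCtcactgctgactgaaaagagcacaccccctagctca
Bst2, minus strand, chr8:71537551-71537638: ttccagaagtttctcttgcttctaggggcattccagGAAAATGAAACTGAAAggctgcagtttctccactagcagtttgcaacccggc
Gbp3, plus strand, chr3:142559963-142560043: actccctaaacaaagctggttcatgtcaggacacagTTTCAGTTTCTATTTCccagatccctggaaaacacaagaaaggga
Ifit3, plus strand, chr19:34583337-34583452: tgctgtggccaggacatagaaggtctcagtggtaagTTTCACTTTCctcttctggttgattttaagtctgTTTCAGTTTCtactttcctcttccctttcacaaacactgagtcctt

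The motif TTCNNNGAA, its own reverse complement, is the core of the gamma-activated site bound by STAT dimers. It is shown for a called gene of each direction.
Irf1, plus strand, chr11:53769888-53769968: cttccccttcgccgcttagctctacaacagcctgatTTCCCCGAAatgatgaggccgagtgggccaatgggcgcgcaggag
Psmb8, plus strand, chr17:34198062-34198142: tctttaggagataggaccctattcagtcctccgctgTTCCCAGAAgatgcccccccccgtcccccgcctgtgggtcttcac

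GAAANNGAAA occurred in the windows of 17 of 33 listed genes (51.5%), against 1079 of 27025 genes with a window (3.99%). TTCNNNGAA occurred in 9 of 33 (27.3%), against 2582 of 27025 (9.55%). Matches of the 2 motifs overlapped in 1 listed gene, Bst2. A match is a description of the letters and not a measured binding site. Among the called genes, Irgm1 held the first motif, while Ifit2, Irf1, Ifi35 and Psmb8 held the second and Irf7 held neither.

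All levels are log2 signals as deposited. A level was taken as above background where it exceeded the 95th percentile of 1027 olfactory receptor genes on the same array, which lay at 7.18 to 7.41 on the tetraploid and 7.01 to 7.26 on the diploid arrays. Between 10212 and 11300 genes lay above it per array. A gene counts below as above background where it passed on all 3 arrays of at least 1 line, which 15 of the 37 genes did, while 8 did not pass on any array. Genes were compared with limma, and a gene was called at a Benjamini-Hochberg adjusted p below 0.05 over all 19856 genes. Of 12 fibroblast markers 10 lay above background on every tetraploid array, all but Lum and Fap, and 12 on every diploid array. Between the lines 0 of the 12 rose and 5 fell (41.7%), against 6.15% and 7.80% of all genes and 9.48% and 10.9% of genes above background. In 8 of the 12 all diploid arrays lay above all tetraploid arrays, against 18.2% of all genes. The median difference was -0.85, against 0.07 over all genes. Pdgfra and Dcn were higher in mean in the tetraploid line (differences 1.39 and 0.46), while 10 of the 12 were lower. All tetraploid arrays lay above all diploid arrays for Pdgfra, but neither gene passed (limma adjusted p = 0.0618 and 0.313). Fap, a fibroblast activation protease, read 0.0144, 0.0286 and 0.0144 on the tetraploid arrays, against 9.42, 9.43 and 9.10 on the diploid arrays (at least 4.09-fold lower, limma adjusted p = 8.31e-06), the largest fall of all genes at -9.30.

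The interferon and antigen presentation genes did not move as 1 block between the lines. Irf1 and Ifit2 rose in the tetraploid line, Irgm1, Irf7, Ifi35 and Psmb8 fell, and 31 genes did not pass. The 6 calls are 16.2% of 37, against a background of 14.0% of all genes called (6.15% rose and 7.80% fell). The share called was thus near that of all genes. The median difference of the 37 genes, tetraploid minus diploid, was -0.43 on the log2 scale, against 0.07 over all genes, with 27 differences below 0 and 10 above. With all dim values raised to the background level of their array the median was 0.06. Over the 15 genes above background it was -0.49, with 10 differences below 0 and 5 above. The sign thus depended on how dim values were treated. The lines did not overlap in 9 genes, 3 with the tetraploid arrays above and 6 with the diploid arrays above. Over all genes 37.3% did not overlap, 19.1% with the tetraploid and 18.2% with the diploid arrays above.

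**Figure D1:**
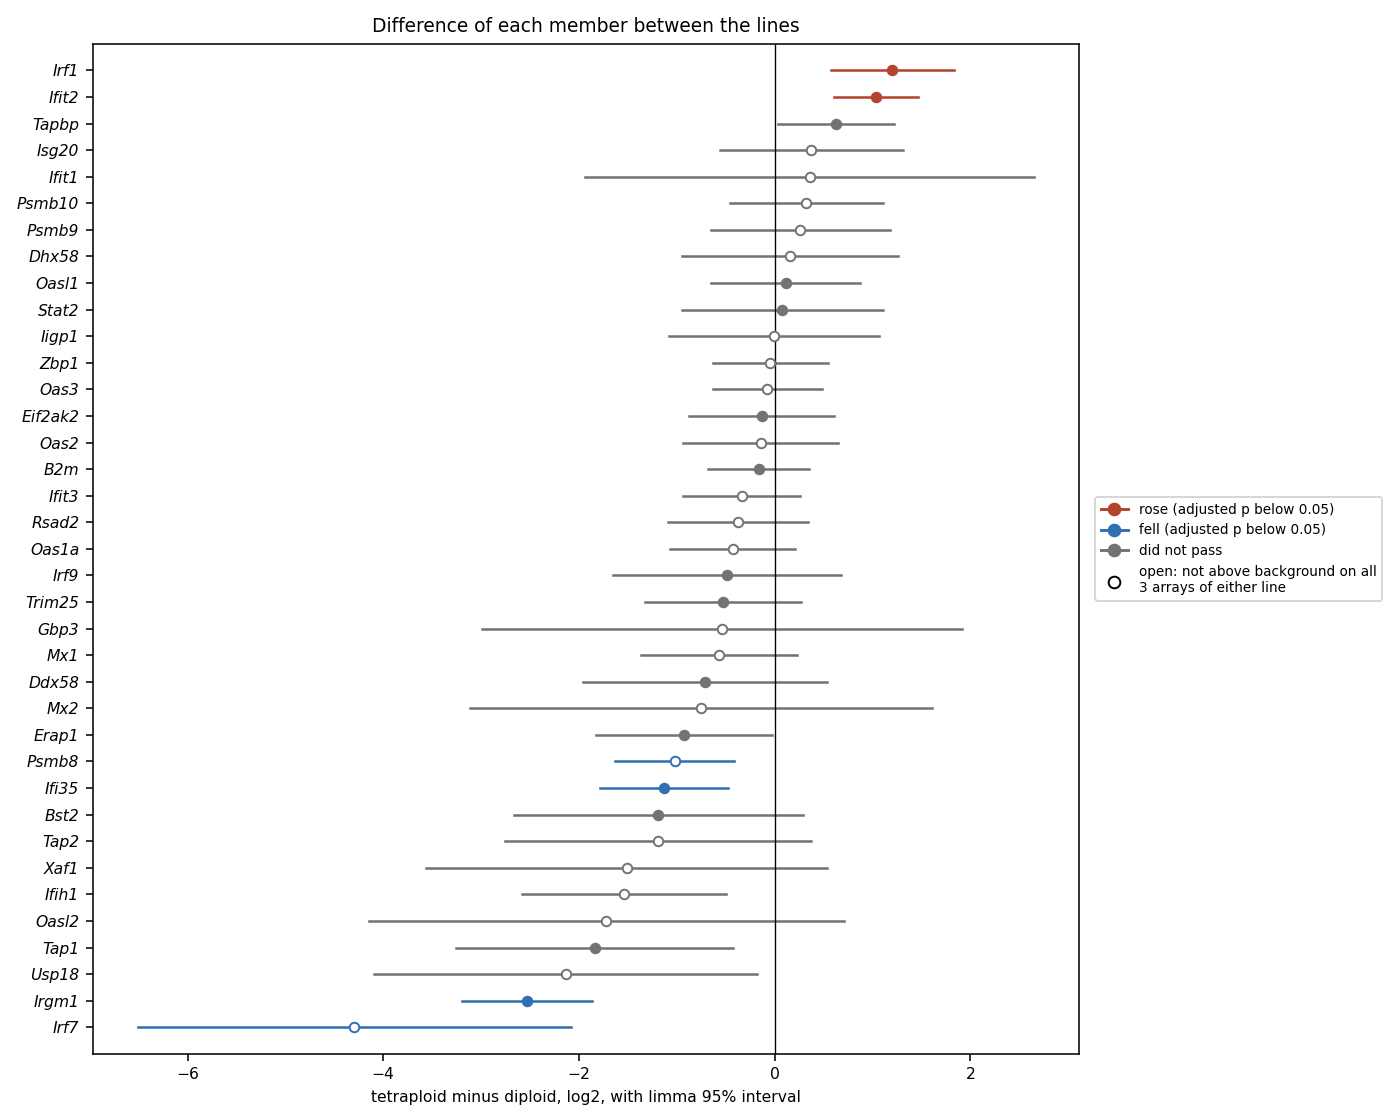
Difference of each of the 37 genes between the lines (mean of 3 tetraploid minus mean of 3 diploid arrays, log2, points) with the 95% interval of the limma fit (bars). Red points rose, blue points fell, grey points did not pass, and open points were not above background on all 3 arrays of either line. Irgm1 at -2.53 combines a large difference with a short interval, while Irf7 at -4.29, Oasl2 at -1.72 and Ifit1 at 0.36 have wide ones.

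Among the 16 antiviral effectors measured, 1 rose, 1 fell and 14 did not pass, with a median difference of -0.36. The share called, 12.5%, was near the 14.0% of all genes. Ifit2 encodes an RNA-binding protein that restricts translation of viral RNA. Its log2 level was 8.58, 8.47 and 8.56 on the tetraploid arrays, against 7.62, 7.48 and 7.41 on the diploid arrays. All tetraploid arrays lay above all diploid arrays, and the difference of 1.04 (95% interval 0.61 to 1.47, limma adjusted p = 0.0145) is a 2.05-fold rise. Ifi35, an interferon-induced leucine zipper protein, stood at 7.78, 7.64 and 7.20 on the tetraploid arrays, against 8.30, 8.63 and 9.07 on the diploid arrays. It fell 2.19-fold (difference -1.13, interval -1.78 to -0.48, limma adjusted p = 0.0393), again with no overlap. Neither call held in every fit that left out 1 array. That of Ifit2 ended without any 1 of the diploid arrays (limma adjusted p 0.0513 to 0.0728). Ifi35 lost its call whichever of the 6 arrays was left out (0.0525 to 0.121). The differences stayed at 0.99 to 1.09 for Ifit2 and at -1.31 to -0.93 for Ifi35. These fits have fewer arrays and called 837 to 2532 of all genes, against 2770 in the main fit.

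The other listed members of the Ifit family were not called. Ifit1, which binds viral RNA that lacks the host cap modification, had levels of 6.61, 5.92 and 5.41 on the tetraploid arrays, against 3.61, 5.45 and 7.81 on the diploid arrays. The tetraploid arrays all lay inside the diploid range, and only diploid array 3 exceeded background (difference 0.36, interval -1.94 to 2.65, limma adjusted p = 0.850). Ifit3, a partner of Ifit1, read 6.76, 6.44 and 6.05 on the tetraploid arrays, against 6.51, 6.82 and 6.93 on the diploid arrays, below background throughout (difference -0.34, limma adjusted p = 0.433).

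Bst2 encodes tetherin, which holds budding virus particles at the cell surface. Its level was 7.58, 6.93 and 7.72 on the tetraploid arrays, against 7.28, 8.62 and 9.90 on the diploid arrays. Diploid array 1 lay within the tetraploid range and diploid array 3 far above it, and the difference of -1.19 (interval -2.66 to 0.29) did not pass (limma adjusted p = 0.260). Eif2ak2, the kinase PKR that stops translation on sensing double-stranded RNA, was at 8.64, 8.81 and 8.85 on the tetraploid arrays, against 8.47, 8.67 and 9.57 on the diploid arrays (difference -0.13, interval -0.88 to 0.61, limma adjusted p = 0.826). The tetraploid arrays lay inside the diploid range. Oasl1, which in mice represses translation of Irf7, was at 7.81, 7.63 and 8.60 on the tetraploid arrays, against 8.01, 8.18 and 7.51 on the diploid arrays (difference 0.11, limma adjusted p = 0.859). These were the other antiviral effectors above background.

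The remaining effectors were dim. Oasl2, a 2'-5' oligoadenylate synthetase-like protein, had levels of 5.89, 4.12 and 3.74 on the tetraploid arrays, against 4.48, 5.98 and 8.47 on the diploid arrays (difference -1.72, interval -4.15 to 0.71, limma adjusted p = 0.321). Xaf1, a pro-apoptotic binding partner of XIAP, read 6.31, 5.81 and 4.46 on the tetraploid arrays, against 5.30, 7.13 and 8.69 on the diploid arrays (difference -1.51, limma adjusted p = 0.302). In both genes diploid array 3 was the only array above background. The exonuclease gene Isg20, the dynamin-like GTPase genes Mx1 and Mx2, the oligoadenylate synthetase genes Oas1a, Oas2 and Oas3, and Rsad2, which encodes viperin, had differences between -0.75 for Mx2 and 0.37 for Isg20, and none passed. Oas1a shares another probe set with its paralog Oas1g, so its level is uncertain.

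**Figure D2:**
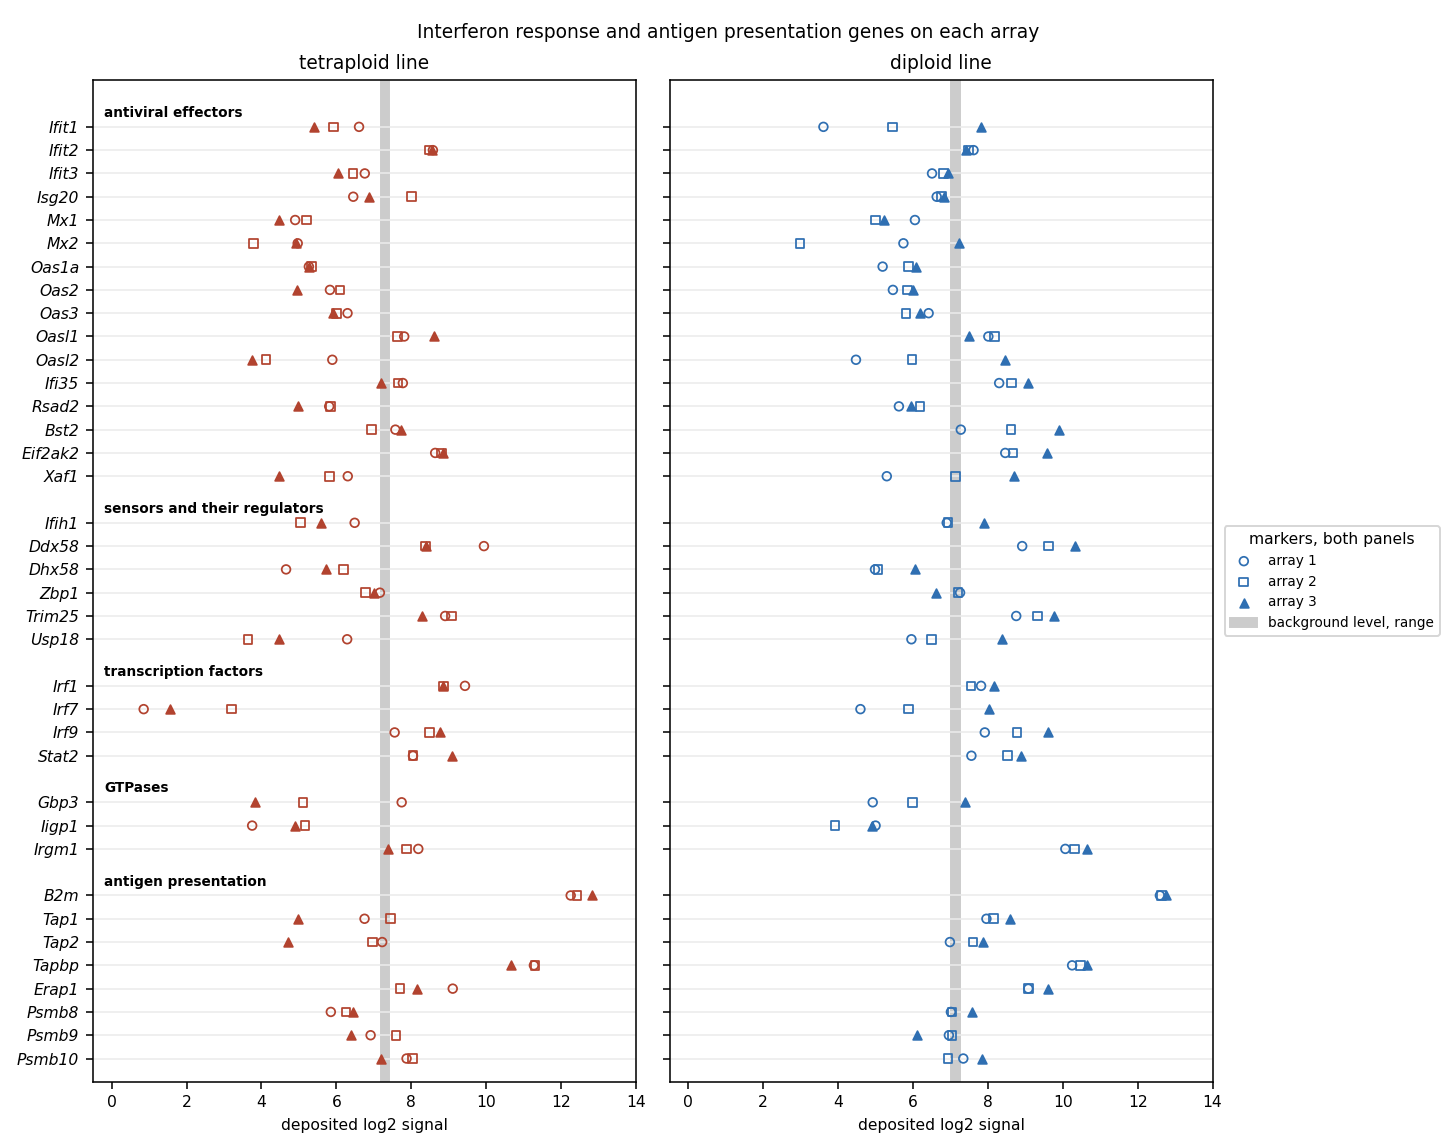
Deposited log2 signal (x axis) of each of the 37 genes (rows, by role) on the 3 tetraploid arrays (left) and the 3 diploid arrays (right). Circles, squares and filled triangles are arrays 1, 2 and 3, and the grey band is the range of the background level. Filled triangles stand furthest right in most rows of the diploid panel, as for Ifit1 at 7.81 and Bst2 at 9.90.

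Of the 6 sensors and regulators of sensing 0 passed in limma, and 2 had an unadjusted p below 0.05. Over all genes 14.0% passed and 5854 of 19856 had an unadjusted p below 0.05, so a count of 0 in 6 does not set them apart. The median difference was -0.62. Ddx58, the RIG-I helicase that detects RNA with an uncapped end, had levels of 9.94, 8.38 and 8.40 on the tetraploid arrays, against 8.92, 9.62 and 10.33 on the diploid arrays. Tetraploid array 1 lay between diploid arrays 2 and 3, so the lines overlapped (difference -0.71, interval -1.96 to 0.53, limma adjusted p = 0.424). Ifih1, the MDA5 helicase for long double-stranded RNA, stood at 6.49, 5.04 and 5.60 on the tetraploid arrays, against 6.90, 6.93 and 7.90 on the diploid arrays. The lines did not overlap, but only diploid array 3 exceeded background and the difference of -1.54 (interval -2.58 to -0.50) missed the threshold (limma adjusted p = 0.0626). Trim25, the ubiquitin ligase that activates RIG-I, was at 8.91, 9.08 and 8.28 on the tetraploid arrays, against 8.76, 9.32 and 9.77 on the diploid arrays (difference -0.53, limma adjusted p = 0.354).

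Usp18 removes ISG15 from proteins and damps the type I receptor. Its level was 6.29, 3.64 and 4.48 on the tetraploid arrays, against 5.96, 6.49 and 8.37 on the diploid arrays. Tetraploid array 1 lay above diploid array 1, and the difference of -2.13 (interval -4.09 to -0.18) did not pass (limma adjusted p = 0.138). Dhx58, the LGP2 helicase that modulates both sensors, differed by 0.16 and Zbp1, a sensor of Z-form nucleic acid, by -0.04, and neither lay above background on all arrays of a line.

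The 4 transcription factors split. Irf1, which drives antigen presentation genes in response to type II interferon, had levels of 9.44, 8.87 and 8.84 on the tetraploid arrays, against 7.82, 7.55 and 8.17 on the diploid arrays. It rose 2.30-fold with no overlap (difference 1.20, interval 0.58 to 1.83, limma adjusted p = 0.0290). A dimmer probe set of Irf1 read 6.75, 6.23 and 6.28 on the tetraploid arrays, against 6.52, 6.76 and 6.66 on the diploid arrays, a difference of -0.23, and with both averaged the call ended (difference 0.49, limma adjusted p = 0.213). The call held in 1 of the 6 fits that each left out an array (limma adjusted p 0.0468 to 0.112).

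Irf7, the factor that amplifies type I interferon production, was at 0.86, 3.20 and 1.57 on the tetraploid arrays, against 4.60, 5.88 and 8.03 on the diploid arrays. It fell by 4.29 on the log2 scale (interval -6.51 to -2.08, limma adjusted p = 0.0282), with no overlap. Only diploid array 3 exceeded background, so no fold is given, and with values raised to background the difference was -0.22 (limma adjusted p = 0.463). Leaving out 1 array kept the call in 2 of 6 fits (limma adjusted p 0.0300 to 0.0794).

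Irf9 and Stat2, the partners in the complex that carries the type I signal, were above background and did not pass. Irf9 read 7.56, 8.49 and 8.78 on the tetraploid arrays, against 7.92, 8.78 and 9.59 on the diploid arrays (difference -0.49, interval -1.65 to 0.68, limma adjusted p = 0.571). Stat2 read 8.05, 8.04 and 9.10 on the tetraploid arrays, against 7.56, 8.52 and 8.87 on the diploid arrays (difference 0.08, interval -0.95 to 1.11, limma adjusted p = 0.929). In both genes array 3 lay above array 1 in the tetraploid line as well as in the diploid line.

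Irgm1 had the lowest adjusted p of the 37 genes. This immunity-related GTPase acts in autophagy and in the defence of mouse cells against microbes that live in vacuoles. Its level was 8.19, 7.87 and 7.37 on the tetraploid arrays, against 10.07, 10.31 and 10.65 on the diploid arrays, a gap wider than the range of either line. It fell 5.77-fold (7.81 ± 0.41 against 10.34 ± 0.29, SD, n = 3 each, difference -2.53, interval -3.19 to -1.87, limma adjusted p = 0.00349). It was called in all 6 fits that left out 1 array (limma adjusted p 0.00678 to 0.0196). The other GTPases did not pass. Gbp3, a guanylate-binding protein, had levels of 7.75, 5.11 and 3.83 on the tetraploid arrays, against 4.93, 5.99 and 7.38 on the diploid arrays (difference -0.54, interval -2.99 to 1.92, limma adjusted p = 0.785). Tetraploid array 1 was thus its highest value of all 6. Iigp1, a GTPase loaded onto parasite vacuoles in mice, was below background on every array (difference -0.01).

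Of the 8 antigen presentation genes 0 rose, 1 fell and 7 did not pass in limma, and 4 had an unadjusted p below 0.05. The share called was 12.5%, against 14.0% of all genes, of which 5854 of 19856 had an unadjusted p below 0.05. The median difference was -0.54. B2m, the light chain of MHC class I, was at 12.26, 12.43 and 12.82 on the tetraploid arrays, against 12.59, 12.63 and 12.76 on the diploid arrays. Its lines overlapped (difference -0.16, interval -0.68 to 0.35, limma adjusted p = 0.679). Psmb8, an immunoproteasome subunit, read 5.85, 6.26 and 6.44 on the tetraploid arrays, against 7.01, 7.04 and 7.57 on the diploid arrays. It fell by 1.02 on the log2 scale with no overlap (interval -1.63 to -0.41, limma adjusted p = 0.0431), but only diploid array 3 exceeded background. The call of Psmb8 ended without any 1 of the 6 arrays (limma adjusted p 0.0535 to 0.128), and also once its dim values were set to background (difference -0.06, adjusted p 0.743).

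Both subunits of the peptide transporter were lower in mean without passing. Tap1 stood at 6.75, 7.45 and 4.98 on the tetraploid arrays, against 7.96, 8.15 and 8.59 on the diploid arrays, with no overlap (difference -1.84, interval -3.25 to -0.43, limma adjusted p = 0.0892). Tap1 passed when only genes above background were tested (limma adjusted p = 0.0363), when dim values were raised (0.00429) and with a variance trend (0.0318). These fits called 34.2%, 19.9% and 20.2% of all genes they tested, against 14.0% in the main fit. Tap1 entered the first only through the diploid line, since 1 tetraploid array exceeded background. Raising dim values narrows the spread of its tetraploid arrays by construction. Tap2 read 7.22, 6.97 and 4.70 on the tetraploid arrays, against 6.99, 7.61 and 7.88 on the diploid arrays (difference -1.19, interval -2.76 to 0.37, limma adjusted p = 0.286). Tetraploid array 3 was the lowest of all 6 arrays for both genes. Tapbp, which encodes tapasin and ties the transporter to MHC class I, was at 11.28, 11.31 and 10.67 on the tetraploid arrays, against 10.25, 10.47 and 10.65 on the diploid arrays. Its arrays did not overlap, with tetraploid array 3 and diploid array 3 nearly level, and the difference of 0.63 (interval 0.04 to 1.22) did not pass (limma adjusted p = 0.148).

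Erap1, the aminopeptidase that trims peptides in the endoplasmic reticulum, had levels of 9.11, 7.70 and 8.17 on the tetraploid arrays, against 9.08, 9.08 and 9.59 on the diploid arrays (difference -0.93, interval -1.83 to -0.03, limma adjusted p = 0.159). The immunoproteasome subunit Psmb9 differed by 0.26 and Psmb10 by 0.32, neither passing. Tap1 and Psmb9 are read in opposite directions from one stretch: their RefSeq windows share 275 bases, chr17:34187306-34187580. Psmb9 was at 6.92, 7.59 and 6.40 on the tetraploid arrays, against 6.96, 7.04 and 6.12 on the diploid arrays, so the genes on either side of that stretch had differences of -1.84 and 0.26. The difference between these 2 values was not tested.

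Lists of other pathway genes were chosen by function. In the receptor and JAK-STAT list of 13, 1 rose and 1 fell in limma, while 11 did not pass, so that 15.4% were called against 14.0% of all genes. The type I receptor chains did not pass: Ifnar1 was at 10.22, 10.60 and 10.48 on the tetraploid arrays, against 10.21, 10.34 and 10.45 on the diploid arrays (difference 0.10, interval -0.37 to 0.58, limma adjusted p = 0.790). Ifnar2 was at 10.15, 10.48 and 10.53 on the tetraploid arrays, against 9.91, 10.06 and 10.08 on the diploid arrays, with no overlap (difference 0.37, interval -0.10 to 0.85, limma adjusted p = 0.273). Of the type II receptor chains, Ifngr2 fell 1.74-fold, with 10.68, 10.50 and 10.25 on the tetraploid arrays, against 11.43, 11.27 and 11.13 on the diploid arrays (difference -0.80, limma adjusted p = 0.0476), with no overlap. Ifngr1 was at 9.21, 9.0 and 9.50 on the tetraploid arrays, against 9.74, 9.68 and 9.88 on the diploid arrays, also with no overlap, and did not pass (difference -0.53, limma adjusted p = 0.148). Ptpn2, a phosphatase that damps Janus kinase and STAT signals, rose 1.97-fold with no overlap, at 10.42, 10.17 and 10.07 on the tetraploid arrays, against 9.19, 9.11 and 9.44 on the diploid arrays (limma adjusted p = 0.0249). Jak1, the kinase shared by both receptors, was at 11.74, 10.41 and 11.39 on the tetraploid arrays, against 11.60, 11.49 and 11.63 on the diploid arrays, which overlapped (difference -0.39, interval -1.22 to 0.43, limma adjusted p = 0.514).

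The interferon genes themselves gave 0 calls in limma among 9 measured, against 14.0% of all genes, and 1 had an unadjusted p below 0.05. Of the 9, 5 lay below background on every array, while Ifna5, Ifne and Ifnl2 lay above it on every array. Ifnl2 was the brightest, with a mean of 10.25 in each line. Of 19 genes of nucleic acid sensing and interferon induction, 1 fell: Tlr4, the receptor for bacterial lipopolysaccharide, at 4.51, 5.99 and 4.07 on the tetraploid arrays, against 7.92, 7.86 and 7.67 on the diploid arrays. That call is 5.26% of the list, against 14.0% of all genes. As the tetraploid arrays lay below background, Tlr4 was at least 1.44-fold lower (limma adjusted p = 0.0112), a bound taken against the background level. Among 37 other interferon-stimulated genes 0 rose, 5 fell and 32 did not pass, with a median difference of -0.20. The 13.5% called were near the 14.0% of all genes. Lgals9, which encodes galectin-9, fell 6.13-fold, with 7.29, 7.88 and 7.71 on the tetraploid arrays, against 9.82, 10.23 and 10.68 on the diploid arrays (limma adjusted p = 0.00345). Lgals3bp, a secreted galectin-binding protein, fell 3.82-fold, with 8.40, 8.60 and 8.35 on the tetraploid arrays, against 9.35, 10.58 and 11.21 on the diploid arrays (limma adjusted p = 0.0345). Tor3a fell 2.12-fold, with 7.59, 6.80 and 6.95 on the tetraploid arrays, against 8.01, 8.08 and 8.51 on the diploid arrays (limma adjusted p = 0.0456). Trim21, an intracellular antibody receptor, was at 6.47, 6.43 and 6.46 on the tetraploid arrays, against 7.44, 7.50 and 7.66 on the diploid arrays, at least 1.18-fold lower (limma adjusted p = 0.0127). The remaining call, Slfn2, was not above background on all arrays of either line and was named after its values were seen. Among 9 genes of MHC class I heavy chains, peptide loading and their regulators 0 passed in limma (3 at an unadjusted p below 0.05). The only heavy chains among these 9 were H2-Q4 and H2-M3. H2-K1, H2-D1 and H2-T23 had only probe sets shared with other genes, and H2-L and H2-Q7 had no match, so their levels were not measured. Of the 3 constitutive catalytic proteasome subunits 0 passed in limma (0 at an unadjusted p below 0.05).

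The genes also differed between the arrays of 1 line. The replicate numbers carry no order, so only which array was high or low is given. On the diploid arrays 26 of 37 genes (70.3%) were highest on array 3 and lowest on array 1, against 19.3% of all genes. Diploid array 3 exceeded diploid array 1 by at least 1 log2 unit in 14 of 37 (37.8%), against 5.06% of all genes, and 0 of 37 lay that far the other way, against 4.99% of all genes. The 14 were Ifit1, Mx2, Oasl2, Bst2, Eif2ak2, Xaf1, Ddx58, Dhx58, Trim25, Usp18, Irf7, Irf9, Stat2 and Gbp3, and Ifih1 lay just under the limit. The gap reached 4.20 for Ifit1, 3.99 for Oasl2, 3.43 for Irf7 and 3.39 for Xaf1. It was below 1 in all 8 antigen presentation genes. Without diploid array 3, limma called 1 of the 37 genes, Irgm1, and 1259 of all genes, and the median difference between the lines was -0.25.

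By role, the median gap of diploid array 3 over array 1 was 1.49 in the transcription factors, 1.04 in the sensors, 0.65 in the effectors, 0.58 in the GTPases and 0.51 in antigen presentation, against 0.02 over all genes. Among genes above background, 6 of 15 had a gap of at least 1 (Bst2, Ddx58, Eif2ak2, Irf9, Stat2 and Trim25), against 83 of 10604 genes (0.783%). That filter removes genes that were dim on diploid array 1, unless all 3 tetraploid arrays passed. The 83 genes also held 4 of the other interferon-stimulated genes, Ifi27, Lgals3bp, Parp12 and Parp9. Without that filter, 23 of the 37 other interferon-stimulated genes were highest on diploid array 3 and lowest on array 1. The median gap of these 37 was 0.86, and 17 of the 37 (45.9%) had a gap of at least 1. No gap of this size occurred among the 13 receptor and JAK-STAT genes, and 1 occurred among the 19 sensing genes. By motif, the median gap was 0.95 in 14 measured genes with GAAANNGAAA in the window, of which 6 reached 1, and 0.55 in 15 without it, of which 5 did. Oasl2, Irf7 and Xaf1 had no match in their windows.

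**Figure D3:**
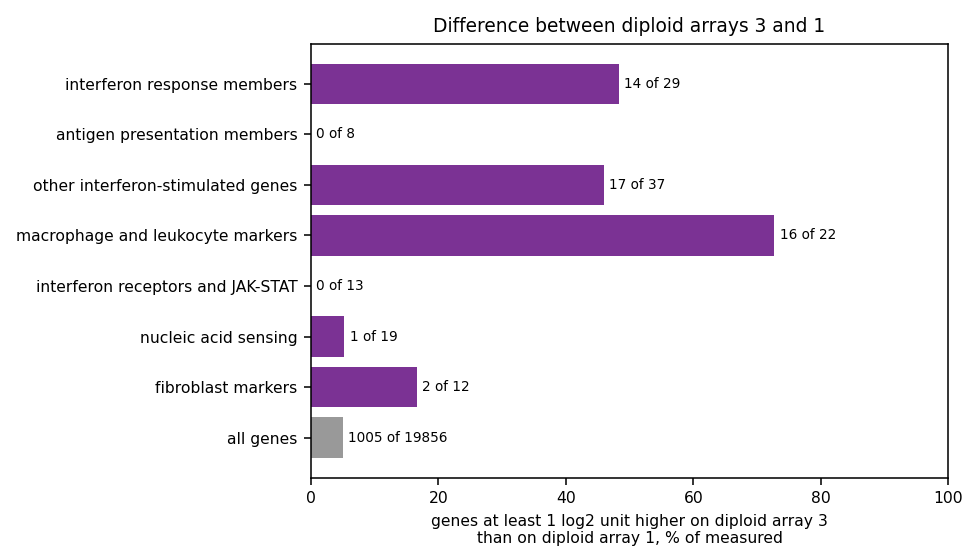
Share of measured genes (x axis, percent, linear from 0) in each list whose log2 signal was at least 1 unit higher on diploid array 3 than on diploid array 1, with counts beside the bars. The interferon response genes reached 14 of 29, the other interferon-stimulated genes 17 of 37 and the antigen presentation genes 0 of 8. Macrophage and leukocyte markers reached 16 of 22 and all genes 1005 of 19856.

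Macrophage and leukocyte markers were high on the same diploid array. Of 22 such markers 16 had a gap of at least 1 and 18 were highest on diploid array 3 and lowest on array 1, with a median gap of 2.33. Their summed linear signal was 906, 1284 and 931 on the tetraploid arrays, against 1205, 2763 and 4677 on the diploid arrays. The number above background was 2, 2 and 1 on the tetraploid arrays, against 2, 6 and 13 on the diploid arrays. On tetraploid array 1, 2 of the markers, Lyz1 and Emr1, were at 0. Not all markers were lower in the tetraploid line: Csf1r (difference 0.18) and Cd14 (0.36) were higher in mean. Csf1r was highest on tetraploid array 2, at 8.55, and Fcgr1 lay above background on every array (-0.06). Lyz2, macrophage lysozyme, stood at 4.58, 3.63 and 0.44 on the tetraploid arrays, against 6.48, 9.32 and 9.98 on the diploid arrays. The part of these markers in the levels of the interferon genes was not tested, and in bulk samples a change in the number of cells of a type and a change in RNA per cell cannot be told apart. Between the lines 0 of the 22 rose and 5 fell in limma (Cd53, C1qa, Mrc1, Lyz1 and Lyz2). The share called was 22.7%, against 14.0% of all genes. All 5 lay below background on every tetraploid array, and Mrc1 on every diploid array too. Cd53 and C1qa exceeded background only on diploid array 3, and 9 of the 22 markers did not exceed it on any array. In 14 of the 22 all diploid arrays lay above all tetraploid arrays, against 18.2% of all genes, and the median difference was -1.89. Only 2 of the 22 lay above background on all 3 arrays of a line, so the 83 genes above can say little about this list. Those 83 held 2 fibroblast markers, Lum and Pdgfra.

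Averaged over the 29 interferon response genes, the log2 level was 6.71, 6.48 and 6.27 on the tetraploid arrays, against 6.60, 6.93 and 7.78 on the diploid arrays. The tetraploid arrays thus lay close to diploid array 1 and below diploid array 3. The antigen presentation genes averaged 8.41, 8.47 and 7.67 on the tetraploid arrays, against 8.52, 8.62 and 8.88 on the diploid arrays, with tetraploid array 3 the lowest of the 6. The macrophage list averaged 4.04, 4.34 and 4.19 on the tetraploid arrays, against 4.94, 6.50 and 7.23 on the diploid arrays, while all genes averaged 7.48 to 7.53 on the tetraploid and 7.52 to 7.58 on the diploid arrays. The number of the 37 genes above background was 17, 17 and 13 on the tetraploid arrays, against 17, 16 and 26 on the diploid arrays. Of all 19856 genes, 10846, 10212 and 10473 lay above it on the tetraploid arrays, against 10756, 10594 and 11300 on the diploid arrays. The background level was lowest on diploid array 3, at 7.01.

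**Figure D4:**
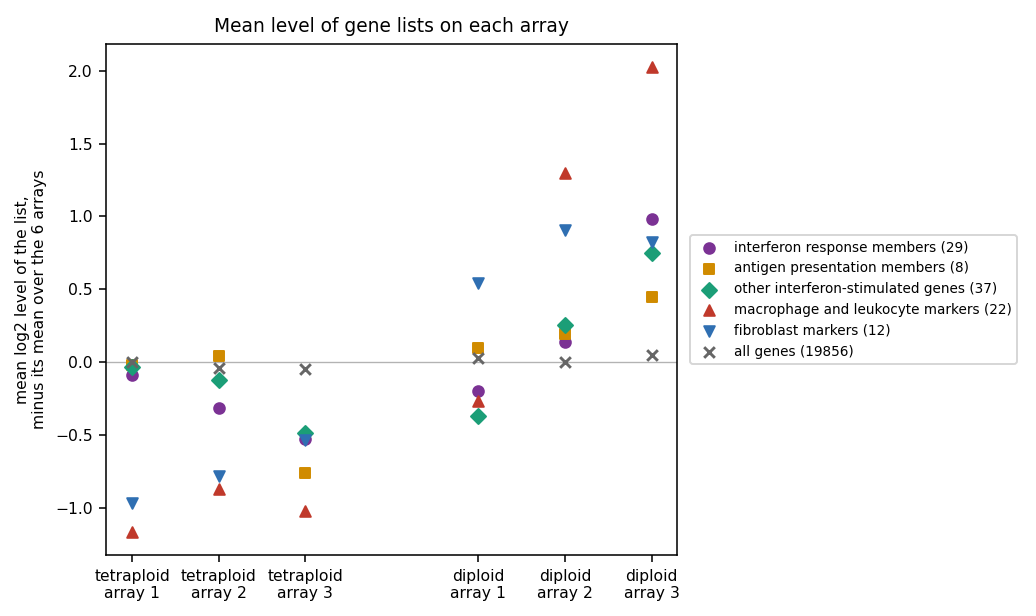
Mean log2 level of 5 gene lists and of all genes on each array (x axis), each minus its own mean over the 6 arrays (y axis, log2 units, number of genes in the legend). The interferon response genes are highest on diploid array 3, where their mean level was 7.78, and the macrophage and leukocyte markers are highest there too, at 7.23.

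Some of the same genes also differed between tetraploid arrays. Tetraploid array 1 exceeded tetraploid array 3 by at least 1 log2 unit in 8 of 37 genes (21.6%), against 7.72% of all genes. These were Ifit1, Oasl2, Xaf1, Ddx58, Usp18, Gbp3, Tap1 and Tap2, and 6 of the 8 are among the 14 with a gap on the diploid arrays. Gbp3 had the widest gap, 3.92. The opposite gap occurred in 4 genes, Dhx58, Irf9, Stat2 and Iigp1. The summed macrophage marker signal was 906 on tetraploid array 1 and 931 on tetraploid array 3. The median SD over the 3 tetraploid arrays was 0.595 for the 37 genes, against 0.345 for all genes.

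Restricted to the 15 genes above background, 2 rose (Ifit2 and Irf1), 2 fell (Irgm1 and Ifi35) and 11 did not pass. Among the 10604 genes above background 9.48% rose and 10.9% fell in the same fit.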

How the data were processed

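The authors deposited 1 log2 value per probe set and array, made with Affymetrix Expression Console per the submitters' processing notes. Which algorithm and normalization it ran is not given in the sources used here. On checking the scale, 2 to the power of each value gave whole hundredths (tolerance 0.001) for 100% of linear values below 1000. Array medians differed by at most 0.0435, so the values were used as deposited. Arrays give no counts, and their number limits the precision. Of 28944 probe sets 21789 carried 1 symbol, 1621 several and 5534 none in GEO's platform annotation. Of those with 1 symbol, 21698 had an Entrez ID in RefSeq (GRCm38.p6). The brightest per gene was kept, which mattered for 993 genes and left 19856.

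The test was limma's moderated test (version 3.58.1, R 4.3.3, lmFit with eBayes, two-sided, no block), tested on simulated data, with Benjamini-Hochberg adjustment over all genes. Intervals are limma's at 95%. A fold against a line below background raised that line to the background level and is a bound. With 3 arrays a line, exact permutation has a smallest p of 0.1. Arrays of the same number deviated together at correlations of only 0.101, 0.0307 and -0.0461, so no large effect shared by equal numbers was visible over all genes. Whether samples of equal number were handled together cannot be told from these values. Alternatives were quantile normalization, a filter on dim genes, dim values raised to background, averaged probe sets, a variance trend, a replicate block and each array left out. The genes and lists were chosen with earlier results of these data known. By the rule for named genes, values per array are given for each of the 37 genes that was called or, being above background, did not overlap between lines. Of the pathway lists the rule names called genes above background, the receptors and Jak1. Other genes were named after their values were seen. Lists of markers of endothelium, epithelium and lymphocytes are given only as limits in the closing section.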

Additional observations from a re-analysis of the deposited data

How the results depend on the processing

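The 4 genes above background that were called, Ifit2, Irf1, Irgm1 and Ifi35, kept their direction under every alternative run, and Irgm1 also kept its call. Of the 37 genes 6 were called. Quantile normalization called 6, the variance trend 8, averaged probe sets 5 (1 rose, since Irf1 was lost), testing above-background genes alone 5 of 15 and raised values 6. In that order these are 16.2%, 21.6%, 13.5%, 33.3% and 16.2% of the listed genes tested. Of all genes tested, 14.6%, 20.2%, 13.8%, 34.2% and 19.9% were called. Tap1 gained a call among above-background genes alone, with raised values and with the trend, Tapbp with raised values and Ifih1 with the trend. Ifih1 and Erap1 gained one without tetraploid array 1. The replicate block called 2, Irf7 and Irgm1, with 0 that rose and 2 that fell in limma, against 2 and 8 at an unadjusted p below 0.05, and 1644 of all genes against 2770. Leaving out 1 array called 1 to 4 of the 37, with 0 to 2 that rose and 1 to 3 that fell, and 837 to 2532 of all genes. The lowest counts of the 37, 1 each, came without diploid array 2 or diploid array 3. Fewer arrays or residual degrees of freedom are built into those fits. The median difference of -0.43 turned to 0.056 with values raised to background, where differences between dim values are replaced by those between background levels. It was -0.49 over the 15 genes above background, and lay between -0.54 and -0.25 with 1 array left out. In alternatives chosen after seeing the data, testing genes above background left 12 of 15 genes (80.0%) highest on diploid array 3 and lowest on array 1, against 26 of 37 (70.3%), and 6 of 15 (40.0%) with a gap of at least 1, against 14 of 37 (37.8%). Raising values to background left 9 of 37 with such a gap. Quantile normalization and averaged probe sets left 26 and 14. Signal over background limits 22 of the 37 genes, which lay below it on at least 1 array of each line.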

Other observations

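Among the other interferon-stimulated genes the chemokines Cxcl10 and Ccl5, chosen here after their values were seen, had larger values in the tetraploid line without passing. Cxcl10, which attracts T cells, was at 8.04, 3.90 and 5.30 on the tetraploid arrays and at 3.03, 2.76 and 4.81 on the diploid arrays (difference 2.21, limma adjusted p = 0.216), and only tetraploid array 1 exceeded background. Ccl5, another T cell attractant, was at 8.64, 7.87 and 6.89 on the tetraploid arrays and at 4.90, 5.48 and 7.08 on the diploid arrays (difference 1.98, limma adjusted p = 0.0898). Both were highest on tetraploid array 1, where Gbp3, Ddx58 and Usp18 were also highest in that line. On the diploid arrays both were highest on array 3.

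Of 6 MHC class II presentation genes measured, all lay below background on every array. Cd74, the invariant chain, was called as higher in the tetraploid line in limma although its 6 values were below background, and no fold is given. It was named after its values were seen. Endothelial markers gave 0 of 7 above background on each tetraploid array and 2, 2 and 1 on the diploid arrays, with 0 that rose and 2 that fell. Of 6 epithelial markers 0 rose and 1 fell, and of 7 lymphocyte markers 0 were called in limma, with 0 at an unadjusted p below 0.05. Over all genes 6.15% rose and 7.80% fell.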
